A study of Mus musculus with 8 samples.

Results

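The genes described here are 35 genes of the endoplasmic reticulum (ER), listed by symbol for their parts in folding, degrading and sensing proteins of that compartment. Their RNA was counted by sequencing small intestine from suckling mice given inorganic arsenic or vehicle. All 35 symbols were among the 24411 in the count table, and all 35 passed the filter on low counts that left 15298 genes for testing. Both groups were hUGT1 transgenic mice, a line humanized for the UGT1 locus of bilirubin- and drug-conjugating enzymes, for which the labels name no further allele. One group received arsenic at 10 mg/kg and the other vehicle. The pups were 14 days of age, and the labels give the time as 24 h. Of 12 mice in a group, 3 at a time were combined into 1 library, which gave 4 arsenic and 4 vehicle libraries of separate mice.

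Secreted and membrane proteins are threaded into the ER, where chaperones hold them, disulfide isomerases join their cysteines, and lectins read the state of their sugar chains. Proteins that stay misfolded are sent back to the cytosol and destroyed, a route called ER-associated degradation. When misfolded proteins build up, the sensors IRE1, PERK and ATF6 start the unfolded protein response, in which the transcription factors XBP1 and ATF6 switch on many of these same genes. Enterocytes of suckling animals load chylomicrons in the ER, and goblet cells fold mucins there, so both cell types depend on this machinery.

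Total counts ran from 22630208 to 29417666 in the arsenic libraries and from 18786779 to 27369320 in the vehicle libraries. Levels are given as CPM, the counts of a gene relative to its library's total after TMM normalization between libraries. Fold changes are arsenic over vehicle, and "called" means an adjusted p below 0.05 in edgeR's quasi-likelihood test with Benjamini-Hochberg adjustment over all 15298 genes. Markers of absorptive enterocytes were abundant in every library, with sums over 7 genes of 22400 to 26600 CPM with arsenic and 25700 to 30400 CPM with vehicle. Of these 7 genes, 4 were called higher and 3 lower, with log2 changes from 1.00 for Anpep to -0.98 for Apoa1. Pancreatic acinar markers were also present, with sums over 10 genes of 3240 to 7220 CPM with arsenic and 3630 to 6950 CPM with vehicle. Acinar cells are rich in ER, so a result is also given with this marker level as a covariate where that changed a call. Sums over 6 markers of cycling cells were 894 to 954 CPM with arsenic and 507 to 596 CPM with vehicle, without overlap, and all 6 were called higher. Plasma cell markers summed to 144 to 155 CPM with arsenic and 111 to 125 CPM with vehicle over the 4 of 6 listed genes in the table, nearly all of it Sdc1, which epithelium also expresses. Of the others, Jchain averaged 4.04 CPM with arsenic and 5.97 CPM with vehicle, and Mzb1 and Tnfrsf17 were under 1 CPM. Macrophage markers summed to 195 to 235 CPM with arsenic and 313 to 318 CPM with vehicle, endothelial markers to 373 to 397 CPM with arsenic and 509 to 558 CPM with vehicle. Smooth muscle markers summed to 2180 to 2660 CPM with arsenic and 1830 to 2020 CPM with vehicle. In whole tissue, more cells of a type and more RNA per cell cannot be told apart, and the part of the cell makeup in the changes below was not tested.

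Most of the ER genes rose with arsenic. By role, the median log2 change ran from 0.04 for the sensors and Xbp1 to 0.99 for the small luminal factors, and differences between roles were not tested. Of the 35 genes, 27 were called higher, or 77.1%, against 32.3% of all tested genes, and 4 were called lower, or 11.4%, against 33.0% of all tested genes. The list was chosen with earlier results of these data known, so its shares are a description and not a test. The median log2 change was 0.44 over the 35 genes and -0.03 over all tested genes. At least 1.5-fold higher and called were 13 of the 35 genes, against 9.16% of all tested genes. No ER gene was called and at least 1.5-fold lower, against 10.6% of all tested genes, and none was so at an unadjusted p below 0.05, in DESeq2 or in limma-voom. Tested against a 1.5-fold change (edgeR's glmTreat), 10 genes were higher, against 5.33% of all tested genes, and none lower, against 5.32%. No gene was lower in that test at an unadjusted p below 0.05 either, or in the corresponding tests of DESeq2 and limma-voom. All 4 arsenic libraries lay above all 4 vehicle libraries for 25 of the 35 genes, against 30.1% of all tested genes. Summed over the 35 genes, the level was 12880 to 14060 CPM with arsenic and 9429 to 10140 CPM with vehicle, or 1.32% to 1.39% of all counts with arsenic and 0.942% to 1.01% with vehicle.

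**Figure D1:**
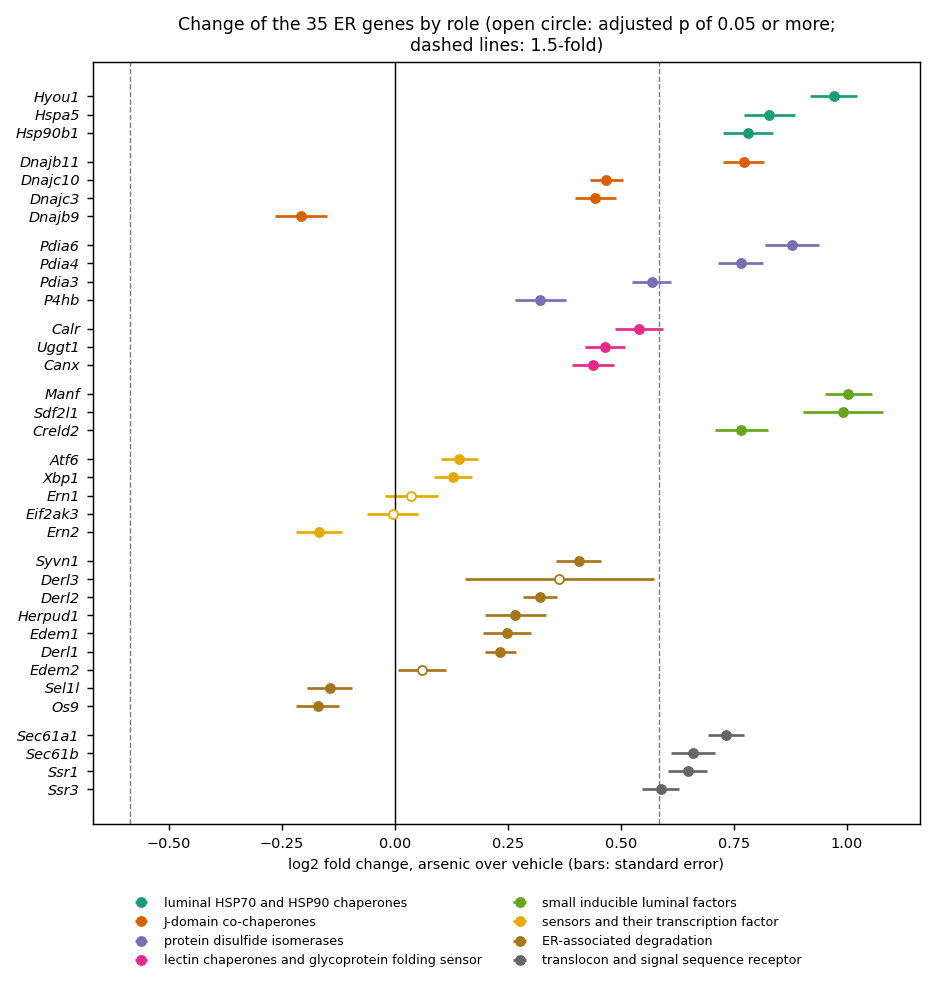
Log2 fold change (arsenic over vehicle, horizontal axis) of the 35 ER genes, ordered by role, with the standard error as bars. Filled circles passed the adjusted p threshold of 0.05 and open circles did not. Chaperones, isomerases, luminal factors and translocon genes lie to the right, up to 1.00 for Manf, except the co-chaperone gene Dnajb9 at -0.21, and the sensor genes lie within 0.17 of 0 on either side.

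The luminal heat shock proteins rose together. Hspa5, which codes for BiP, the chief ER chaperone and the brake on the stress sensors, stood at 1186, 1126, 1091 and 1129 CPM in the arsenic libraries, against 707, 644, 589 and 612 CPM in the vehicle libraries. Hyou1, the exchange factor that resets BiP, stood at 308, 309, 286 and 299 CPM with arsenic, against 166, 162, 143 and 143 CPM with vehicle. Every arsenic library was above every vehicle library for both genes. The changes were 1.78-fold for Hspa5 (log2 0.83, SE 0.06, adjusted p = 7.49e-09) and 1.96-fold for Hyou1 (log2 0.97, SE 0.05, adjusted p = 6.57e-10). Hsp90b1, the ER form of HSP90, averaged 1188 ± 42.4 CPM with arsenic and 690.8 ± 52.3 CPM with vehicle (SD, n = 4 each), 1.72-fold higher. Its exons overlap those of other annotated genes, the largest overlap covering 10.3% of its exonic length on the opposite strand.

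BiP is known to be controlled through the ER stress response element, a CCAAT box and a CCACG box with 9 bases between them, to which the factor NF-Y and then ATF6 or XBP1 bind. In the RefSeq promoter table (GRCm38.p6, 250 bases before to 50 after the start) 29 of the 35 genes had an entry, and Atf6, Derl1, Ern2, Hyou1, Manf and Sec61a1 had none. The element, written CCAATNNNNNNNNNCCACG and searched on both strands, was found before 9 of these 29 genes, or 31.0%, and in 39 of all 32851 promoters, or 0.119%, and 0.136% of the promoters of tested genes. The 9 genes were Calr, Canx, Creld2, Derl3, Dnajc3, Hsp90b1, Hspa5, Pdia6 and Syvn1. The stretches of 5 of them, which had the largest rises of the 9, are printed 5′ to 3′ on the strand of the gene to show how the boxes sit. The boxes are in capitals, read as CGTGG and ATTGG where the element lies on the opposite strand.
Pdia6 (chr12:17266479-17266521, plus strand): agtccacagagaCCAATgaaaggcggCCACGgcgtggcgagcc
Hspa5 (chr2:34772013-34772055, plus strand): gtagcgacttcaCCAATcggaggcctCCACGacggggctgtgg
Hsp90b1 (chr10:86705521-86705668, minus strand): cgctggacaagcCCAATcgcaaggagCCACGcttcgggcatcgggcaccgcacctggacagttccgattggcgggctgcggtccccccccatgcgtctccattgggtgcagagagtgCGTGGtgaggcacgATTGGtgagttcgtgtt
Creld2 (chr15:88819508-88819550, plus strand): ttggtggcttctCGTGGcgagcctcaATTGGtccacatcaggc
Calr (chr8:84847063-84847105, minus strand): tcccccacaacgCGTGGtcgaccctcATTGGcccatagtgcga

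Hsp90b1 held 2 elements, and across the 9 genes they began 212 to 44 bases before the start. Genes with the element had log2 changes from 0.36 to 0.88 (median 0.54), and 8 of the 9 were called higher. The 20 genes with an entry and without the element ran from -0.21 to 0.99 (median 0.32), and 14 of them were called higher. The element was also found in the windows of 11 tested genes outside the list, of which 3 were called higher and 4 lower (median log2 -0.10). All of these counts are to be read against the 32.3% of all tested genes called higher and the 33.0% called lower. The shorter ER stress response element II, ATTGGNCCACG on either strand, was in the windows of Dnajb11 (after the start) and Herpud1 (before it). That is 6.90% of the 29 genes, against 0.0365% of all promoters and 0.0545% of those of tested genes. The core of the unfolded protein response element, TGACGTGG, was found in none of the 29 windows, in 0.676% of all promoters and in 0.873% of those of tested genes. The CCACG box alone, which is part of both longer elements, was in 79.3% of the 29 genes' windows, in 32.8% of all promoters and in 44.7% of those of tested genes. These are matches of letters, and binding was not measured. Since ATF6 and XBP1 are known to switch on many of the listed genes, the shares are a description and not a test.

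**Figure D2:**
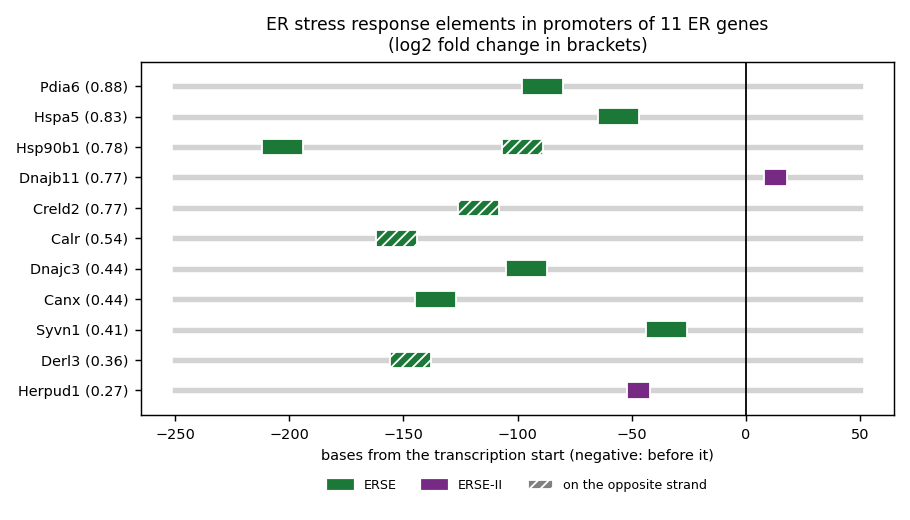
Position of the ER stress response element (ERSE) and of ERSE-II in the promoters of the 11 ER genes that hold one, in bases from the transcription start, with hatching for the opposite strand. Genes run from the largest log2 change at the top (Pdia6, 0.88) to the smallest at the bottom (Herpud1, 0.27). The ERSE matches lie before the start in all 9 genes, and the only match after it is the ERSE-II of Dnajb11.

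The J-domain co-chaperones, which deliver clients to BiP and start its ATP cycle, did not move as one. Dnajb11 (ERdj3), which binds unfolded chains for BiP, stood at 219, 214, 211 and 219 CPM with arsenic, against 136, 131, 120 and 119 CPM with vehicle. Dnajb9 (ERdj4), which also holds IRE1 in check and is a textbook target of XBP1, stood at 75.1, 72.4, 61.8 and 71.5 CPM with arsenic, against 77.1, 78.4, 87.8 and 81.1 CPM with vehicle. The groups did not overlap for either gene, with Dnajb11 above and Dnajb9 below vehicle in every arsenic library. Dnajb11 rose 1.71-fold (log2 0.77, SE 0.04, adjusted p = 1.37e-09), while Dnajb9 fell by 0.21 on the log2 scale (SE 0.06, adjusted p = 0.00511), the largest fall among the 35 genes. Dnajc3 (P58IPK), known as an inhibitor of PERK as well as a co-chaperone, averaged 199.3 ± 9.78 CPM with arsenic and 146.4 ± 6.70 CPM with vehicle and rose by log2 0.44. Dnajc10 (ERdj5), a reductase that opens disulfides before degradation, rose by log2 0.47, and both groups of libraries were tight, at 83.3 ± 1.26 CPM with arsenic and 60.2 ± 2.24 CPM with vehicle.

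All 4 protein disulfide isomerases rose. Pdia6, which also acts on the luminal side of IRE1, stood at 313, 293, 290 and 312 CPM with arsenic, against 187, 164, 147 and 158 CPM with vehicle. The lowest arsenic library was thus above the highest vehicle library, and the change was 1.84-fold (log2 0.88, SE 0.06, adjusted p = 8.30e-09). Pdia4 (ERp72), an isomerase found in BiP complexes, averaged 227.4 ± 12.2 CPM with arsenic and 133.7 ± 8.62 CPM with vehicle, 1.70-fold higher. Pdia3 (ERp57), the partner of the lectin chaperones, averaged 823.6 ± 19.7 CPM with arsenic and 555.5 ± 20.3 CPM with vehicle, 1.48-fold higher. The groups were apart for all 4 isomerases. P4hb, the founding member of the family, is also the small subunit of the triglyceride transfer protein that loads chylomicrons. It was the most abundant of the 35 genes per length, with 1400 ± 75.6 CPM per kilobase of exon with arsenic and 1120 ± 70.9 with vehicle. Its rise was the smallest of the 4, at 1.25-fold (log2 0.32, SE 0.06, adjusted p = 0.000144).

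The lectin chaperones, which retain glycoproteins until they are folded, rose less than 1.5-fold. Calr (calreticulin, soluble) stood at 1473, 1457, 1364 and 1366 CPM with arsenic, against 1033, 1001, 895 and 962 CPM with vehicle. A pseudogene named after Calr, Calr-ps, is annotated, and reads shared with it cannot be set apart. No library of one group reached the range of the other for Calr, which rose 1.46-fold (log2 0.54, SE 0.05, adjusted p = 3.45e-07). Canx (calnexin, the membrane-bound form) averaged 631.6 ± 27.7 CPM with arsenic and 465.9 ± 16.7 CPM with vehicle (log2 0.44, SE 0.05). Uggt1, which puts a glucose back on misfolded glycoproteins so that the lectins bind again, averaged 160.9 ± 8.06 CPM with arsenic and 116.4 ± 5.18 CPM with vehicle, 1.38-fold higher.

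All 3 small luminal factors rose, and Manf and Sdf2l1 had the highest log2 changes of the 35 genes. Manf, a calcium-sensitive partner of BiP that is also secreted, stood at 151, 150, 147 and 154 CPM with arsenic, against 82.1, 77.8, 66.4 and 73.1 CPM with vehicle. The arsenic libraries lay within a narrow band and every vehicle library lay far below it, a 2.00-fold rise (log2 1.00, SE 0.05, adjusted p = 4.27e-10). Sdf2l1, which works with Dnajb11 on BiP clients, rose 1.99-fold (log2 0.99, SE 0.09, adjusted p = 1.30e-07), and Creld2, a stress-inducible factor with isomerase activity, averaged 85.4 ± 3.27 CPM with arsenic and 49.98 ± 5.23 CPM with vehicle. Sdf2l1 averaged 60.5 ± 3.87 CPM with arsenic and 30.2 ± 5.06 CPM with vehicle, and its coefficient of variation among vehicle libraries, 16.8%, was the highest of these 3 genes. Exons of Manf overlap those of Dcaf1, of Rbm15b and of an antisense transcript, the largest overlap covering 4.71% of its exonic length.

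**Figure D3:**
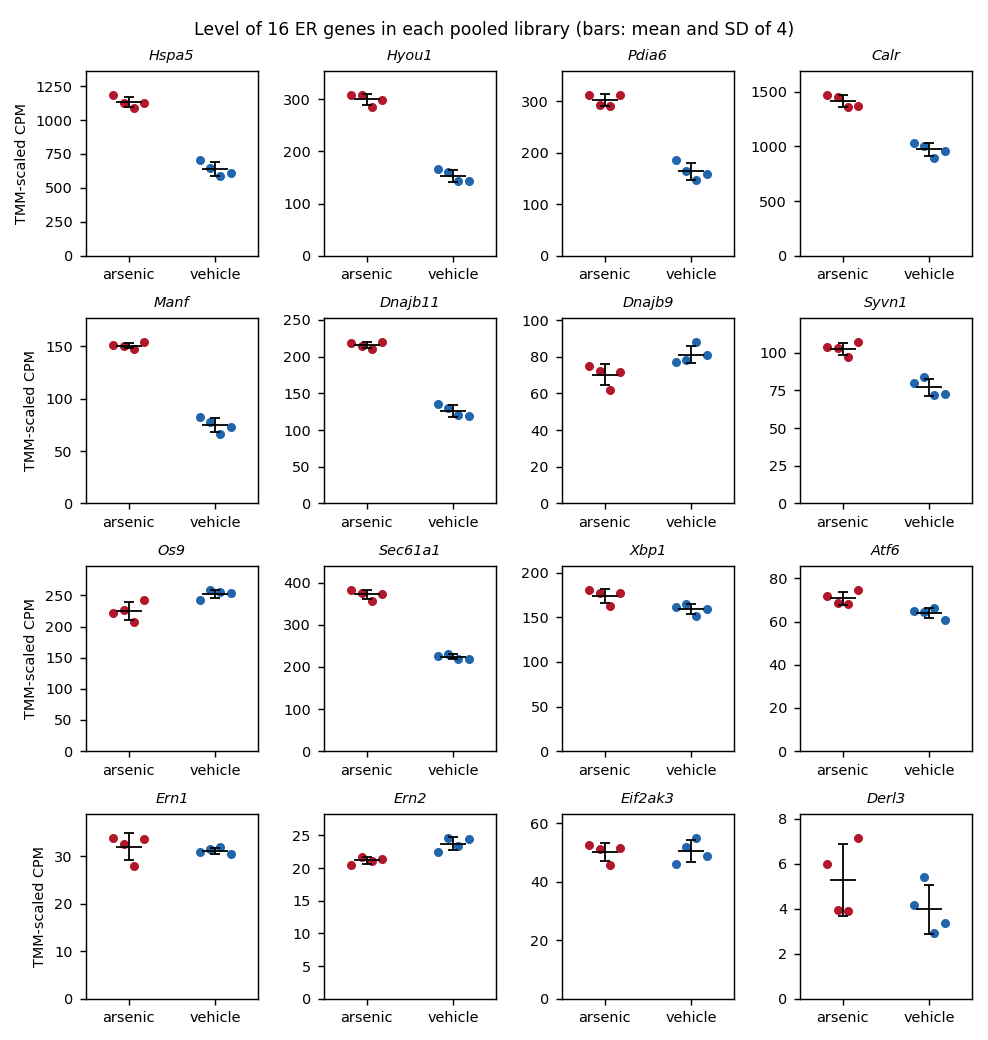
TMM-scaled CPM of 16 of the ER genes in each pooled library, arsenic in red at the left and vehicle in blue at the right, with the mean and SD of 4 libraries as bars and axes from 0. The groups are apart for Hspa5, Hyou1, Pdia6, Calr, Manf, Dnajb11, Syvn1, Sec61a1 and Atf6 with arsenic higher, and for Dnajb9 and Ern2 with arsenic lower. They overlap for Os9, Xbp1, Ern1, Eif2ak3 and Derl3.

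The genes of the sensors changed little, in either direction. Ern1, the IRE1 of most tissues, stood at 33.9, 32.7, 28.0 and 33.7 CPM with arsenic, against 30.9, 31.5, 31.9 and 30.5 CPM with vehicle. Eif2ak3, which codes for PERK, stood at 52.6, 51.0, 45.7 and 51.5 CPM with arsenic, against 46.0, 51.9, 54.99 and 48.9 CPM with vehicle. In both genes the groups overlapped, and arsenic replicate 3 was the lowest library. Neither passed the test (adjusted p = 0.601 for Ern1 and 0.948 for Eif2ak3), and the 95% intervals of the log2 change ran from -0.09 to 0.16 for Ern1 and from -0.13 to 0.12 for Eif2ak3. An annotated transcript on the opposite strand overlaps 8.05% of the exonic length of Eif2ak3.

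Ern2, the IRE1 form restricted to mucus-secreting epithelia, stood at 20.4, 21.8, 21.1 and 21.4 CPM with arsenic, against 22.5, 24.7, 23.4 and 24.5 CPM with vehicle. All arsenic libraries were below all vehicle libraries by a small margin. Ern2 fell by 0.17 on the log2 scale (SE 0.05, adjusted p = 0.00999), and lost the call without vehicle replicate 2 (adjusted p = 0.0522). Beside it, the summed goblet cell markers stood at 5580 to 6720 CPM with arsenic and 5360 to 6280 CPM with vehicle, and 4 of 7 were called higher and 1 lower.

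Atf6, the sensor that is cut in the Golgi to free a transcription factor, stood at 71.6, 68.6, 68.0 and 74.6 CPM with arsenic, against 64.7, 64.2, 66.3 and 60.7 CPM with vehicle. The groups were apart by a small margin, and Atf6 rose 1.10-fold (log2 0.14, SE 0.04, adjusted p = 0.00648). Xbp1, whose messenger is spliced by IRE1 into the active form, stood at 181, 177, 163 and 177 CPM with arsenic, against 161, 165, 151 and 160 CPM with vehicle. Arsenic replicate 3 fell within the vehicle range, and Xbp1 rose 1.09-fold (log2 0.13, SE 0.04, adjusted p = 0.0134). The counts are per gene, so spliced and unspliced Xbp1 were not told apart, nor was the cleavage of ATF6 or the phosphorylation of the kinases measured.

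Of 9 genes of ER-associated degradation 5 were called higher, or 55.6%, against 32.3% of all tested genes, and 2 lower, or 22.2%, against 33.0%. Syvn1 (HRD1), the ubiquitin ligase of the route, stood at 104, 103, 96.9 and 107 CPM with arsenic, against 79.8, 83.9, 72.3 and 72.9 CPM with vehicle. Os9, the lectin that hands glycoproteins to the ligase complex, stood at 222, 226, 207 and 243 CPM with arsenic, against 242, 259, 255 and 254 CPM with vehicle. Syvn1 was higher in every arsenic library than in any vehicle library, while the highest arsenic library for Os9 reached the lowest vehicle library. Syvn1 rose 1.33-fold (log2 0.41, SE 0.05, adjusted p = 3.69e-06), and Os9 fell by 0.17 on the log2 scale (SE 0.05, adjusted p = 0.00557).

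Sel1l, the scaffold that holds the ligase Syvn1 and receives cargo from Os9, also fell, to 243 ± 17.4 CPM with arsenic, against 268 ± 7.37 CPM with vehicle (adjusted p = 0.0199). This call was lost without arsenic replicate 3 (adjusted p = 0.0561), vehicle replicate 2 (0.0857) or vehicle replicate 3 (0.0531). The mannosidase-like Edem1 rose to 158.7 ± 11.9 CPM with arsenic, against 133.5 ± 7.12 CPM with vehicle (log2 0.25, SE 0.05), whereas its relative Edem2 stood at 70.3 ± 5.45 CPM with arsenic and 67.2 ± 3.14 CPM with vehicle (adjusted p = 0.327). Herpud1, a membrane adaptor of the ligase, rose by log2 0.27 (SE 0.07) with overlapping groups. The derlins, channel proteins of the exit route, rose by log2 0.23 for Derl1 and 0.32 for Derl2, and Derl1 averaged 128.1 ± 3.16 CPM with arsenic and 109.0 ± 2.53 CPM with vehicle.

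Derl3, the derlin known from secretory glands, was the least abundant of the 35 genes, at 6.002, 3.95, 3.91 and 7.15 CPM with arsenic, against 4.16, 5.42, 2.93 and 3.38 CPM with vehicle. In the same order the summed acinar markers stood at 4560, 3310, 3240 and 7220 CPM with arsenic, against 4940, 6950, 3630 and 3680 CPM with vehicle. Within each group the order of the libraries by acinar sum was the same as by Derl3. Derl3 missed the threshold (log2 0.36, SE 0.21, adjusted p = 0.140), as it did in DESeq2 (adjusted p = 0.220) and limma-voom (0.187). Derl3 passed with the acinar level as a covariate (log2 0.47, adjusted p = 0.00136), a setting chosen after seeing the data. It also passed without arsenic replicate 3 (adjusted p = 0.0491) or vehicle replicate 2 (0.0316).

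The translocon genes, which form the entry channel, rose as a block of 4. Sec61a1, the pore itself, stood at 383, 377, 357 and 373 CPM with arsenic, against 227, 230, 219 and 220 CPM with vehicle. The groups were far apart relative to their spread, and Sec61a1 rose 1.66-fold (log2 0.73, SE 0.04, adjusted p = 6.61e-10). Sec61b, a small subunit of the pore, averaged 62.1 ± 2.72 CPM with arsenic and 39.2 ± 2.49 CPM with vehicle (log2 0.66). Ssr1 and Ssr3, subunits of the signal sequence receptor beside the pore, rose by log2 0.65 and 0.59. Ssr3 averaged 375.7 ± 7.97 CPM with arsenic and 249.7 ± 9.30 CPM with vehicle, and no library of the groups overlapped for any of the 4 genes. An antisense transcript overlaps 8.16% of the exonic length of Sec61a1.

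Per kilobase of merged exon, the vehicle level of the 35 genes ran from 1.99 for Derl3 and 3.82 for Ern1 to 338 for Calr and 1120 for P4hb. Change did not follow level closely, with a Spearman correlation of 0.29 across the 35 genes between vehicle CPM per kilobase and log2 change, given as a description since all genes share the same libraries. Manf, Hyou1 and Sdf2l1, the genes with the highest log2 changes, had vehicle levels of 21.2, 21.2 and 27.2 CPM per kilobase. Os9, with 96.0 CPM per kilobase with vehicle, was lower with arsenic, at 85.4. The sensor genes Ern1, Ern2, Eif2ak3 and Atf6 were all below 10 CPM per kilobase in both groups.

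**Figure D4:**
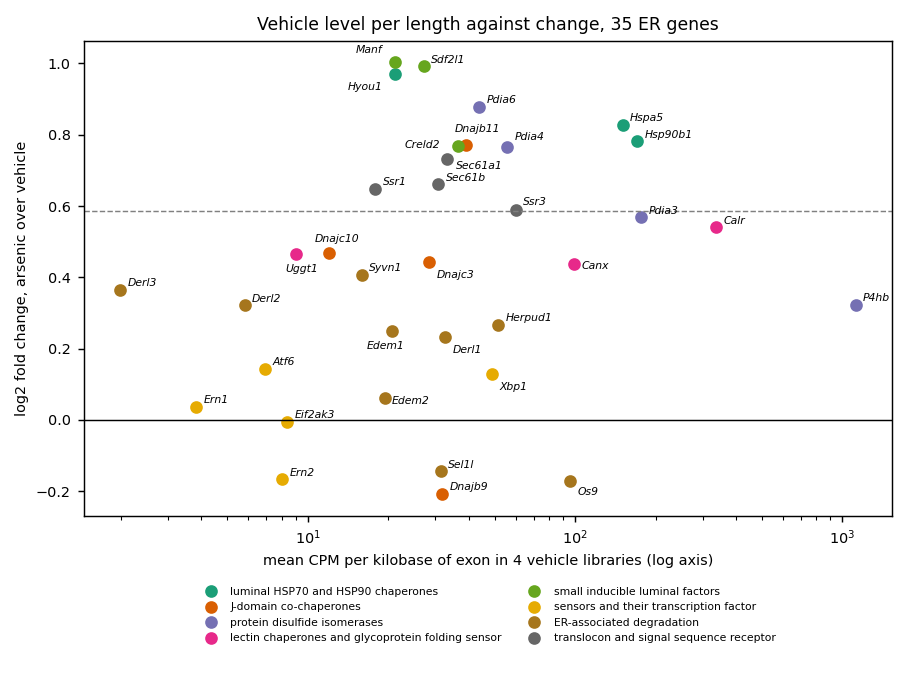
Mean vehicle level per kilobase of exon (log axis) against the log2 fold change, arsenic over vehicle, for the 35 ER genes coloured by role, with the dashed line at 1.5-fold. The points above the line span vehicle levels from 17.9 (Ssr1) to 171 (Hsp90b1), and P4hb, the most abundant gene, lies below it at 0.32.

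Within groups the genes varied little. The median coefficient of variation over the 35 genes was 4.28% among arsenic libraries and 5.33% among vehicle libraries. Many of the genes deviated together in a library. In arsenic replicate 3 only 2 of the 35 genes were above the mean of the arsenic group, and in arsenic replicates 1 and 4 it was 28 in each. In vehicle replicates 3 and 4 it was 8 and 10 genes, against 25 and 31 in vehicle replicates 1 and 2. These library-wide shifts were small, with medians of -0.06 to 0.04 on the log2 scale with arsenic and -0.06 to 0.06 with vehicle.

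Other genes, of the secretory route and of ER stress signalling, were together mostly higher as well. Over 7 further lists with 112 genes, all tested, 77 were called higher, or 68.8%, against 32.3% of all tested genes. Called lower were 13, or 11.6%, against 33.0% of all tested genes, and the median log2 change was 0.30. The counts for each list are to be read against the same 2 shares, and these lists too were chosen with earlier results known. Of 20 further translocon, signal peptidase and signal recognition genes 18 rose and 1 fell, with Sec61g (log2 0.74), a pore subunit, and Spcs3 (0.63), of the signal peptidase, at the top. Sec62, an accessory channel protein that also takes part in removing ER by autophagy, fell by 0.33 on the log2 scale. Of 20 N-glycosylation genes 17 rose and 1 fell, with Ostc (log2 0.80), a subunit of the oligosaccharyl transferase, and Gfpt1 (0.79), the entry enzyme of hexosamine synthesis, highest, and Tusc3 at -0.21. Of 16 genes for COPII vesicles, which carry cargo out of the ER, 13 rose and 1 fell, with Sar1b (0.79), the GTPase needed for chylomicron export, and the coat gene Sec23b (0.72) highest, and Sec16b at -0.14.

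In the remaining lists a smaller share of genes was called higher. Of 19 further folding genes 9 rose and 3 fell. The proline isomerase gene Fkbp11 (log2 0.77) and the disulfide isomerase gene Pdia5 (0.52) rose most, and Dnajb12 and Sil1, an exchange factor of BiP, each fell by 0.18 on the log2 scale. Of 19 further degradation genes 12 rose and 3 fell, with Vcp (log2 0.69), the ATPase that pulls proteins out of the membrane, and the low-level ubiquitin-conjugating gene Ube2j2 (0.63) highest. The lectin gene Erlec1, a relative of Os9, fell by 0.30 and the ligase gene Rnf139 by 0.16 on the log2 scale. Among 8 ER-bound transcription factors and their proteases the shares were below those of all tested genes, with 2 genes called in each direction. Those that rose were Atf6b and Creb3l1 (both 0.24), and those that fell were Creb3l4 by 0.20 and Creb3l3, a regulator of fat metabolism in liver and gut, by 0.32 on the log2 scale. Of 10 genes listed as downstream of PERK 6 were called higher and 2 lower, and the part of PERK in these changes was not tested. The low-level pseudokinase gene Trib3, at 6.47 CPM with arsenic and 2.94 CPM with vehicle, rose by log2 1.13 (SE 0.14). The asparagine synthetase gene Asns rose by log2 1.04 and Atf4 by 0.30. Ddit3, which codes for CHOP, fell by 0.50 and the stress gene Sesn2 by 0.89 on the log2 scale. Ddit3 averaged 21.9 ± 1.90 CPM with arsenic and 31.2 ± 1.53 CPM with vehicle, and Asns 52.7 ± 2.82 CPM with arsenic and 25.6 ± 2.73 CPM with vehicle, without overlap of the groups in either gene.

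**Figure D5:**
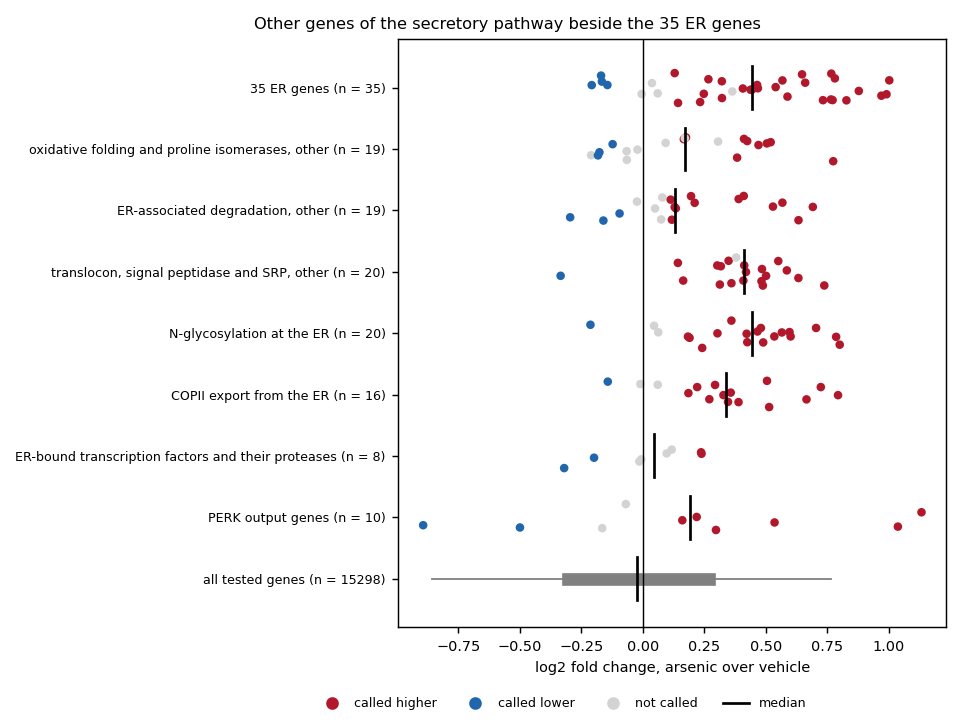
Log2 fold change, arsenic over vehicle, of each gene in the 35-gene list and in 7 further lists of the secretory route and of ER stress signalling. Points are red where called higher, blue where called lower and grey where not called, with the median of each list as a black bar. The bottom row gives all 15298 tested genes, the box running between the quartiles, from -0.31 to 0.27, and the line the 5th to 95th percentiles. The 35 genes have their median at 0.44, N-glycosylation at 0.45 and further translocon genes at 0.41, against 0.05 for the ER-bound transcription factors.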

How the data were processed

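RNA of pooled small intestine was sequenced from stranded mRNA libraries, per the labels' protocols. The submitters' processing notes list the build mm10 and the tools STAR 2.7.9a, bcl2fastq 2.20 and DESeq2 1.34.0. For the counter, annotation and strand setting, nothing is given in the sources, so reads of overlapping genes cannot be apportioned. The authors deposited raw counts, which were the input here. They also deposited normalized counts (a signal scaled by 1 factor per library), regularized log2 values, and a comparison with log2 fold changes and p-values. By the authors' deposited table, 27 of the 35 genes were higher and 4 lower at an adjusted p below 0.05. Of the 35 genes, 10 carried the authors' mark for 1.5-fold, the same 10 that passed the test against 1.5-fold here. Sec61b, Ssr1 and Ssr3, called and at least 1.5-fold higher here, did not carry it.

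Genes were kept by filterByExpr (minimum count 10, minimum total 15), scaled by TMM and tested with edgeR 4.0.16 in R 4.3.3 (glmQLFit, glmQLFTest, glmTreat, two-sided, group as the only term), with Benjamini-Hochberg adjustment. CPM values are TMM-scaled. Means are given with SD over 4 pools of separate mice. Alternatives were DESeq2 1.42.0, limma-voom 3.58.1, other scalings and filters, and leaving out libraries. The test was checked on simulated data. No pair of libraries within a group was a duplicate, the chi-square of their counts over its degrees of freedom being 3.06 to 14.0. Exon lengths and overlaps came from GENCODE M21 (mm10), and promoters from RefSeq (GRCm38.p6).

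The 35 genes and the other lists were chosen with earlier results of these data known. Named are all 35 genes, those with the highest rise and fall per role with each library's value, and up to 2 genes each way of the other lists. Atf4 and Derl3 were added after their values were seen. Protein features were planned and are not analysed here.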

Additional observations from a re-analysis of the deposited data

Results flagged for a closer look

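In 2 of 70 sets of 4 libraries (35 genes in each group) 1 library stood apart from the other 3, where chance gives about 1 in 20. P4hb stood at 3680 CPM in arsenic replicate 3, against 4080 to 4130 CPM in the other arsenic libraries. Derl2 stood at 57.2 CPM in arsenic replicate 1, against 59.1 to 59.3 CPM in the others, a gap that is large only because those 3 lay so close together.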

How the results depend on the processing

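Over 18 alternative settings the number of ER genes called higher was 27 or 28. The number called lower was 2 to 4 with 1 library left out, the 2 being without vehicle replicate 2. It was 3 without vehicle replicate 4 and arsenic replicate 3 together, and 4 under every other setting. Those at least 1.5-fold higher numbered 12 to 14, and those past the 1.5-fold test 10 or 11. The only change of sign was that of Eif2ak3, whose log2 change stayed near 0 throughout. It ran from -0.049 (without vehicle replicate 1) to 0.049 (without vehicle replicate 3) with 1 library left out, and was also above 0 without arsenic replicate 3 (0.040) or vehicle replicate 2 (0.024). It was 0.0045 with DESeq2 size factors in edgeR, 0.0042 in DESeq2, 0.015 without a filter on low counts, 0.00096 with a minimum of 1 CPM in 4 libraries and 0.026 without vehicle replicate 4 and arsenic replicate 3. With the acinar level as a covariate, an alternative chosen after seeing the data, it was 7.96e-05. The cause was not tested. With 1 mismatch allowed in the boxes, 14 of the 29 promoters held an ER stress response element, as did 494 of all 32851 promoters and 1.94% of those of tested genes. No scaling moved the median of all genes by more than 0.03 on the log2 scale. No paired analysis was possible because the labels give the groups no shared replicate numbers. At 3.97 to 5.25 CPM, Derl3 had an SE of 0.21, against 0.03 to 0.09 for the other 34 genes.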

Other observations

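Agr2, a disulfide isomerase relative that goblet cells need to fold the mucin MUC2, was among the goblet cell markers and not among the 35 genes. It averaged 384 CPM with arsenic and 184.5 CPM with vehicle (log2 1.06, adjusted p = 1.17e-10 in edgeR's quasi-likelihood test), and all 4 arsenic libraries were above all 4 vehicle libraries. Of the other 6 markers of that list, Muc2 (log2 0.54), Spink4 (0.47) and Zg16 (0.47) rose, and Fcgbp fell by 0.18 on the log2 scale (adjusted p = 0.0367). Clca1 (log2 -0.11, adjusted p = 0.183) and Tff3 (log2 -0.04, adjusted p = 0.524) did not pass the test. Agr2 was chosen for description after its values were seen.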
